A study of Homo sapiens with 9 samples.

Results

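The miR-130 seed family, which takes in miR-301 and miR-454, groups miRNAs that share 1 seed, the bases 2 to 8 from the 5′ end with which a miRNA pairs to target transcripts. It was represented by 5 of the 2652 mature miRNA names counted in the libraries, namely hsa-miR-130a-3p, hsa-miR-130b-3p, hsa-miR-301a-3p, hsa-miR-301b-3p and hsa-miR-454-3p. Members were taken by name and not by a threshold on measured values, but the family was chosen with earlier results of these data known. The samples came from miTRAP, an affinity purification that retains miRNAs on a bait RNA. All 9 small RNA libraries were made from ES-2, an established line of ovarian cancer origin, which was labelled WT and untreated in each group.

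The 3 input libraries were made from lysate that had not been trapped. The 3 MS2 control libraries represent what a bait of MS2 loops alone retained. The 3 PD-L1 3'UTR libraries, called 3'UTR libraries below, represent what was retained once the loops were joined to the 3'UTR of PD-L1, the immune checkpoint ligand encoded by CD274. Per the methods of the study, the baits were also loaded in unequal amounts. Sequence and amount of the bait cannot be told apart between the trapped groups. Lysate of a single cell line was used throughout. In a bulk lysate, fewer cells that hold a miRNA and fewer copies per cell cannot be told apart.

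A miRNA is cut from a hairpin precursor, and either the 5p or the 3p arm can be loaded into an Argonaute protein, where the seed guides it to sites mostly in 3'UTRs. Members of a seed family can therefore address the same sites while being transcribed from different loci. The miR-130 seed family is widely expressed and has been studied in cancer, hypoxia and vascular biology. The hairpins of miR-301a and miR-454 lie in introns of SKA2, a gene of the mitotic spindle and kinetochore machinery.

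The mature sequences of 4 of the 5 members were found in the RefSeq table (GRCh38.p14), together with the 5p arms of 4 of the 5 hairpins. The 4 members and the 3 arms that were tested are shown because the seed defines the family, and because the arms of 1 hairpin gave different results. Capitals mark bases 2 to 8.
hsa-miR-130b-3p: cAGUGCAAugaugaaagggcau
hsa-miR-301a-3p: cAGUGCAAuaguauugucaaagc
hsa-miR-301b-3p: cAGUGCAAugauauugucaaagc
hsa-miR-454-3p: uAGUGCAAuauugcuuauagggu
hsa-miR-130b-5p: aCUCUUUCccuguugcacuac
hsa-miR-301a-5p: gCUCUGACuuuauugcacuacu
hsa-miR-454-5p: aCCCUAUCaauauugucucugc

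The 4 members shown have the same seed, AGUGCAA. Outside the seed they differ. miR-301a-3p and miR-301b-3p share 21 of 23 bases and differ by A10G and G11A, counted from 1 at the 5′ end with the base of miR-301a-3p first. miR-301b-3p and miR-130b-3p have their first 12 bases in common. Among the 4, miR-454-3p alone begins with U, and it matches miR-301a-3p in 13 of 23 positions. Reads of miR-301a-3p and miR-301b-3p could be assigned to the wrong member where these positions were misread, so the split between them is uncertain.

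By RefSeq coordinates on GRCh38.p14, miR-301b-3p (chr22:21653025-21653047) and miR-130b-3p (chr22:21653354-21653375) lie on the forward strand of chromosome 22 with 306 bases between them. miR-301a-3p (chr17:59151149-59151171) and miR-454-3p (chr17:59137787-59137809) lie on the reverse strand of chromosome 17 with 13339 bases between them. In the GENCODE annotation of GRCh37, the hairpin MIR301A (chr17:57228497-57228582) and the hairpin MIR454 (chr17:57215119-57215233) were intronic in all transcripts of SKA2. MIR130A (chr11:57408671-57408759) was intronic in all transcripts of the lncRNA MIR130AHG. MIR301B (chr22:22007270-22007347) lay in an intron of a lncRNA.

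The libraries held between 672824 and 5983577 miRNA counts, with less depth after trapping than in the input. On the CPM scale (counts per 1000000 of the TMM-scaled library size), 3 counts were worth between 0.676 and 4.02 CPM. Within each group, replicates differed by more than sampling noise, and replicate 1 differed most from the others. The chi-square over its degrees of freedom for replicate 1 against replicates 2 and 3 was 121 and 156 in the input. It was 108 and 138 in the MS2 control and 93.8 and 154 on the 3'UTR. Between replicates 2 and 3 it was 8.60, 30.5 and 17.9 in these groups. The source of this difference was not tested. 3'UTR replicate 1 stood apart from the other libraries of its group in markers of other cells. Its 3 muscle markers summed to 1834 CPM, where the lowest library of the group had 28.3 CPM. Among them miR-1-3p had 1433 CPM, against 101 and 25.4 CPM in 3'UTR replicates 2 and 3. The liver marker miR-122-5p had 161 CPM, against 0 and 0.726 CPM. Over the input libraries the summed muscle markers ranged from 1.58 to 4.05 CPM and over the MS2 control libraries from 44.8 to 131. The 6 blood markers summed to between 544 and 1509 CPM in the 3'UTR libraries. Their sum ranged from 318 to 365 CPM in the MS2 control and from 194 to 268 CPM in the input. On the 3'UTR, miR-142-5p had 459, 400 and 290 CPM and miR-142-3p 193, 144 and 174 CPM in replicates 1, 2 and 3. There miR-223-3p had 30, 0 and 1 counts and miR-150-5p 20, 0 and 0 counts. Of the blood markers, miR-150-5p had 0 counts in all MS2 control libraries. Of the 5 epithelial markers miR-429 had 0 counts in all libraries, and the summed level was at most 236 CPM in the 3'UTR libraries, 78.2 CPM on the loops alone and 55.5 CPM over the input libraries. The neuronal marker miR-124-3p reached 9.91 CPM in a 3'UTR library. The part of these RNAs in the results was not tested, and the fold changes of members, their 5p arms and related families are given below with and without that library.

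Summed over the 5 members, the family was most abundant on the 3'UTR. Their summed level was 279, 240 and 230 CPM in input replicates 1, 2 and 3. It was 69.8, 72.2 and 66.6 CPM in the MS2 control and 1684, 1690 and 2120 CPM on the 3'UTR. The 3 groups did not overlap in this sum, with the MS2 control lowest and the 3'UTR highest. The mean of the 3'UTR libraries was 26.3 times that of the MS2 control and 7.33 times that of the input, and the MS2 control mean was 0.278 times the input mean. When libraries were scaled by their totals these folds were 25.2, 10.9 and 0.430. Without 3'UTR replicate 1 the sum was 27.4 times the MS2 control and 7.63 times the input. The family made up between 0.187% and 0.238% of all counts of a 3'UTR library and between 0.0171% and 0.0210% of an input library.

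Setting the 3'UTR libraries against the MS2 control libraries asks what the 3'UTR added to loops and resin. Of the 5 members, 4 were higher and 0 lower by edgeR at an adjusted p below 0.05, against 31.4% of all 408 miRNAs tested that were called higher and 28.7% called lower. The comparison with the input asks whether a member was more frequent in the eluate than in the lysate. Here again 4 were higher and 0 lower, beside 34.1% and 32.4% of all miRNAs. Both comparisons called miR-130a-3p, miR-130b-3p, miR-301a-3p and miR-454-3p, and both use the same 3'UTR libraries. Over all miRNAs, 18.9% were higher than both other groups. All 5 members passed the filter on low counts. However, miR-301a-3p and miR-301b-3p passed it through their levels in the 3'UTR libraries, all 3 of which were above the cutoff of 8.05 CPM on library totals, with 1 MS2 control library and 0 input libraries above it. A difference was built into their passing, so the counts of members called are a description. The direction of the 4 called members was the same with library totals and with DESeq2's size factors. The calls over both references were the same in number without 3'UTR replicate 1.

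The median log2 fold change of the members was 3.17 relative to the MS2 control and 3.24 over the input, where the median of all 408 miRNAs was 0.02 and 0.04. Replicates are separate samples per the labels, which do not name separate cultures. The p-values then measure the spread between these samples, which may be technical.

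**Figure D1:**
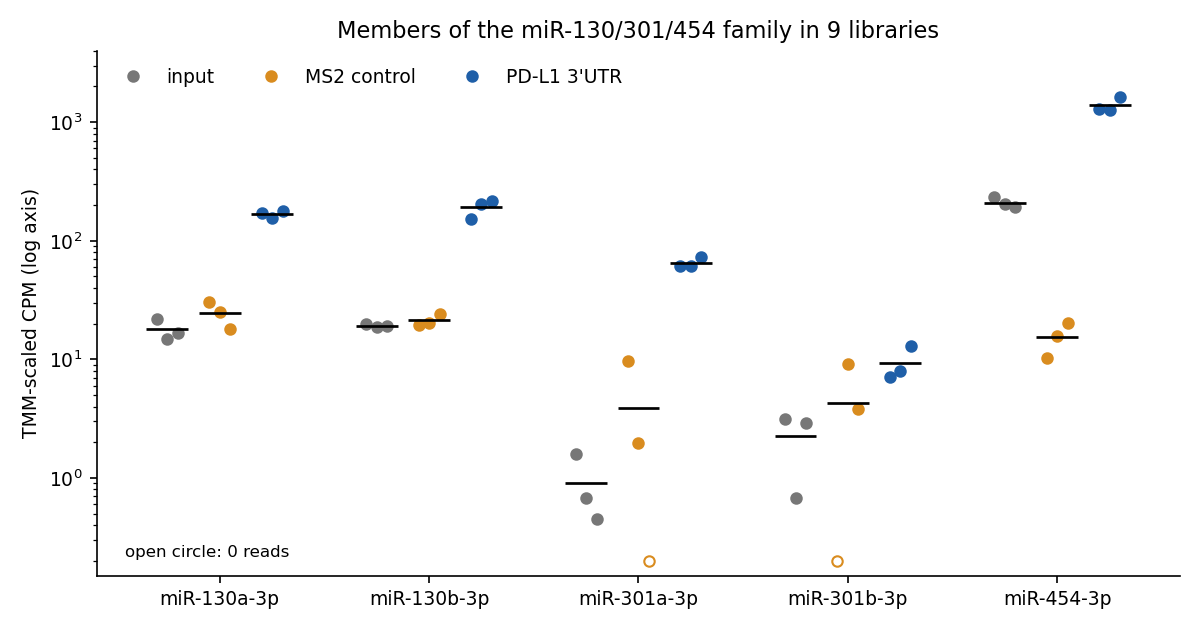
TMM-scaled CPM of each member (log axis) in the 9 libraries, with 1 point per library, a bar for the group mean of 3 libraries and open circles for libraries with 0 reads, drawn at the foot of the axis. The 3'UTR points lie above all others for miR-130a-3p, miR-130b-3p, miR-301a-3p and miR-454-3p, the MS2 control points of miR-454-3p lie below its input points, and the groups of miR-301b-3p overlap.

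miR-454-3p was the most abundant member in the input and in the 3'UTR group. Its level was 233, 205 and 191 CPM in input replicates 1, 2 and 3. On the loops alone it was 10.3, 15.9 and 20.4 CPM, and on the 3'UTR 1292, 1258 and 1637 CPM. The groups were far apart, and every MS2 control library was below every input library. The MS2 control values rest on 16, 40 and 27 counts.

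Relative to the MS2 control miR-454-3p rose by a log2 fold change of 6.49 ± 0.27 (SE, edgeR adjusted p of 1.11e-08), the 10th largest change among the 408 miRNAs. Over the input it rose by 2.74 ± 0.22 (edgeR adjusted p of 2.15e-06), which ranked 58th. On the loops alone it was below the input, with a log2 fold change of -3.76 (SE 0.24, edgeR adjusted p of 6.6e-07) and ranked 394th from the top. The large change relative to the MS2 control therefore spans a fall below the lysate on the loops alone and a rise above it on the 3'UTR. Without 3'UTR replicate 1 the log2 fold changes were 6.58 relative to the MS2 control and 2.74 over the input.

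The pair miR-130a-3p and miR-130b-3p had similar levels to each other in every group. miR-130a-3p had 22.1, 14.8 and 16.7 CPM in the input, 30.4, 25.0 and 18.2 CPM in the MS2 control and 171, 157 and 179 CPM on the 3'UTR. miR-130b-3p had 19.7, 18.9 and 18.9 CPM in the input, 19.4, 20.2 and 24.2 CPM in the MS2 control and 152.2, 205 and 218 CPM on the 3'UTR. For both, the 3'UTR libraries lay above all others, and the input and MS2 control libraries overlapped.

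miR-130a-3p rose by a log2 fold change of 2.78 ± 0.26 relative to the MS2 control (edgeR adjusted p of 5.11e-06) and by 3.24 ± 0.26 over the input (edgeR adjusted p of 2.15e-06). miR-130b-3p rose by 3.17 ± 0.23 relative to the MS2 control (edgeR adjusted p of 7.36e-07) and by 3.32 ± 0.23 over the input (edgeR adjusted p of 6.06e-07). From the input to the MS2 control, the fold changes on the log2 scale were 0.46 ± 0.25 for miR-130a-3p (edgeR adjusted p of 0.129) and 0.14 ± 0.22 for miR-130b-3p (edgeR adjusted p of 0.567). Neither difference between loops and lysate passed the test, whereas with library totals both miRNAs were called higher on the loops. Without 3'UTR replicate 1 the changes relative to the MS2 control were 2.80 and 3.35, and over the input 3.18 and 3.41.

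miR-301a-3p was scarce in the lysate and had a moderate level on the 3'UTR. It had 6, 2 and 2 counts in the input, or 1.58, 0.674 and 0.451 CPM. On the loops alone it had 15, 5 and 0 counts, or 9.70, 1.98 and 0 CPM, where the library with 0 counts allows up to 2.27 CPM. On the 3'UTR it had 87, 46 and 100 counts, or 61.6, 61.7 and 72.6 CPM. The 3'UTR libraries were close to each other and above all others, while the MS2 control libraries scattered around the input values.

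The log2 fold change of miR-301a-3p was 4.07 ± 0.73 relative to the MS2 control and 6.10 ± 0.80 over the input. Since it passed the filter through the 3'UTR group, where it was high, these values are a description. Both rest on few reference reads. Without MS2 control replicate 1, which held 15 of the 20 MS2 control reads, the value relative to the MS2 control was 5.68. Between the MS2 control and the input the log2 fold change was 2.03 ± 0.90 (edgeR adjusted p of 0.0672), and without MS2 control replicate 1 it was 0.34 (edgeR adjusted p of 0.744). It passed the threshold without MS2 control replicate 3, at 2.37 (edgeR adjusted p of 0.017), and with library totals, the Wald test of DESeq2 or no filter on low counts (adjusted p of 0.0232, 0.0107 and 0.0191). Without 3'UTR replicate 1 the values were 4.15 relative to the MS2 control and 6.10 over the input.

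miR-301b-3p was low in all groups, and no difference passed the test. Several alternative fits called miR-301b-3p higher on the 3'UTR than in the input, which is a description, as given below. It had 12, 2 and 13 counts in the input, or 3.16, 0.674 and 2.93 CPM. On the loops alone it had 0, 23 and 5 counts, or 0, 9.12 and 3.78 CPM, and the library with 0 counts allows up to 1.94 CPM. On the 3'UTR it had 10, 6 and 18 counts, or 7.08, 8.05 and 13.1 CPM. The 3'UTR libraries lay above the input libraries, but MS2 control replicate 2 lay within their range.

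The log2 fold change of miR-301b-3p was 1.02 ± 0.87 relative to the MS2 control (edgeR adjusted p of 0.331) and 2.01 ± 0.87 over the input (edgeR adjusted p of 0.0631). These values and the calls that follow are a description, since miR-301b-3p passed the filter through the 3'UTR group, where its mean was highest. Over the input it passed the threshold with edgeR's exact test (adjusted p of 0.00138), with only the groups compared in the fit (edgeR, 0.0133), with library totals (edgeR, 0.0198) and with the Wald test of DESeq2 (0.0463). It also did so when MS2 control replicate 1 was left out of the common fit (edgeR adjusted p of 0.0204) and when MS2 control replicate 2 was left out (edgeR adjusted p of 0.0467). Relative to the MS2 control, leaving out each library gave log2 fold changes from 0.50 to 2.36. Neither comparison passed without 3'UTR replicate 1, with values of 1.25 relative to the MS2 control and 2.14 over the input.

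The MS2 control libraries set against the lysate show the background of trapping. There, 0 members were higher and 1, miR-454-3p, was lower, beside 32.8% of all miRNAs called higher and 37% called lower. This count moved with the scaling. Library totals shifted the median over all miRNAs from 0.02 to 0.65, with 199 miRNAs higher and 104 lower in place of 134 and 151. On that scale miR-130a-3p, miR-130b-3p and miR-301a-3p were called higher in the MS2 control by 1.09, 0.77 and 2.66, and miR-454-3p was lower by a log2 fold change of -3.14. The value of miR-130b-3p was thus close to the shifted median. For the PD-L1 3'UTR against the input, library totals moved the median from 0.04 to 0.60 and the calls from 139 higher and 132 lower to 192 and 89, and 5 members were called higher.

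**Figure D2:**
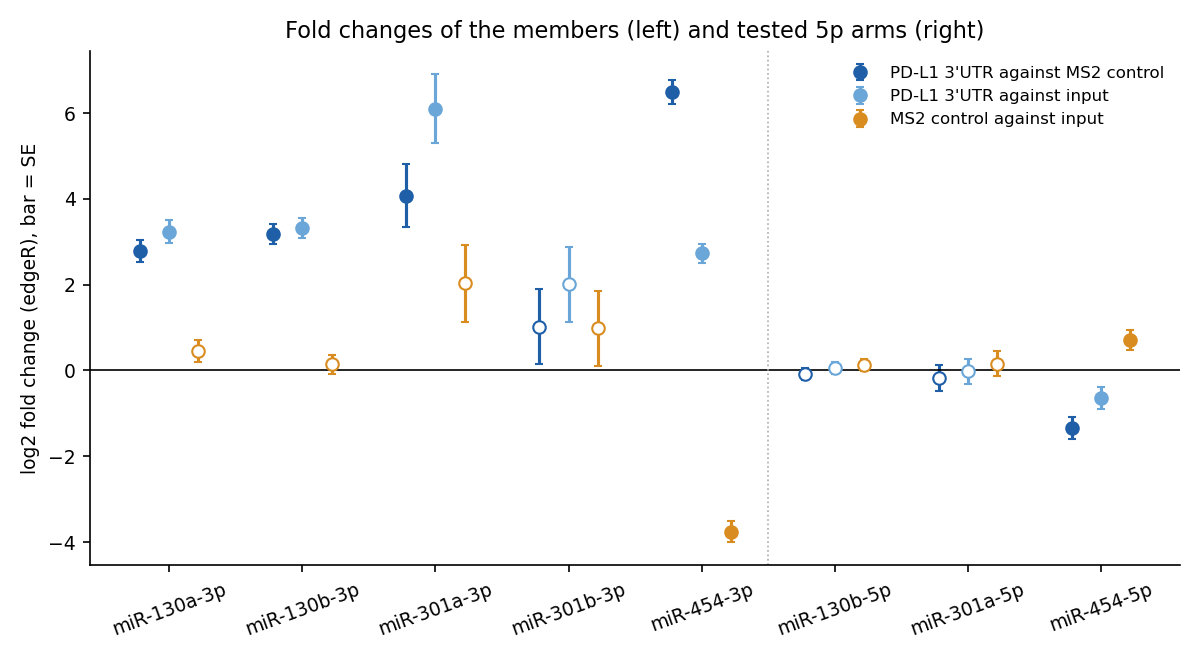
Log2 fold change with its SE from edgeR for the 5 members (left of the dotted line) and the 3 tested 5p arms (right), in each of the 3 comparisons, with filled points for an adjusted p below 0.05 and open points otherwise. The members lie above 0 in both 3'UTR comparisons, with miR-301b-3p open, whereas no 5p arm has a filled point above 0 on the 3'UTR under this scaling.

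By the shares of miR-454-3p, miR-130a-3p and miR-130b-3p in the family's reads, the MS2 control libraries did not overlap with any other library. A ratio of members within a library does not depend on how libraries are scaled. miR-454-3p took 83.9% ± 1.25 (SD, n = 3) of the family's reads in the input, 22.5% ± 7.95 in the MS2 control and 76.1% ± 1.47 on the 3'UTR. miR-130a-3p took 7.11% ± 0.867, 35.1% ± 8.14 and 9.30% ± 0.860, respectively. miR-130b-3p took 7.72% ± 0.591, 30.7% ± 4.89 and 10.5% ± 1.56. On the loops alone, the pair of miR-130 members thus held most of the family's reads in each library, where miR-454-3p did so in the lysate and on the 3'UTR.

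The order of the minor members differed between group means. miR-301b-3p took 0.894% ± 0.535 of the family's reads in the input and miR-301a-3p 0.347% ± 0.193. On the 3'UTR the shares were 0.504% ± 0.101 for miR-301b-3p and 3.58% ± 0.134 for miR-301a-3p. Among MS2 control libraries they were 6.11% ± 6.33 and 5.55% ± 7.36, so the order there was lost in the spread between replicates. The log2 ratio of miR-301a-3p to miR-301b-3p was 2.78 ± 0.31 (SD, n = 3) on the 3'UTR and -1.13 ± 1.23 in the input, and the libraries of the groups did not overlap.

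By level, the order in the input was miR-454-3p, then miR-130b-3p and miR-130a-3p, which overlapped, then miR-301b-3p and miR-301a-3p, which also overlapped. On the 3'UTR the order was miR-454-3p, then miR-130b-3p and miR-130a-3p, which overlapped, then miR-301a-3p and last miR-301b-3p, without overlap. In the MS2 control miR-130a-3p, miR-130b-3p and miR-454-3p formed an upper group in which neighbours overlapped. The members with a sequence are 22 or 23 bases long, and whether length bears on this order was not tested. How well each sequence was ligated and amplified was not tested.

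The ratio of each pair of members was compared between groups by an exact permutation test over libraries, two-sided. With 3 against 3 libraries such a test cannot go below 0.1. Of 30 comparisons, which cover 10 pairs of members in 3 contrasts, 14 reached that smallest value. How often pairs of other miRNAs reach it was not tested, so this count is no trait of the family. After Benjamini-Hochberg adjustment the lowest p was 0.214, so the test could not call any of the 30 comparisons, and the values carry the result. The ratio of miR-130a-3p to miR-130b-3p differed least between groups. Its log2 value was -0.17 ± 0.30 (SD, n = 3) on the 3'UTR, 0.18 ± 0.53 in the MS2 control and -0.12 ± 0.26 in the input, and the groups overlapped. In contrast, the log2 ratio of miR-130b-3p to miR-454-3p was -2.87 ± 0.24 on the 3'UTR, 0.49 ± 0.35 in the MS2 control and -3.44 ± 0.11 in the input, without overlap.

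**Figure D3:**
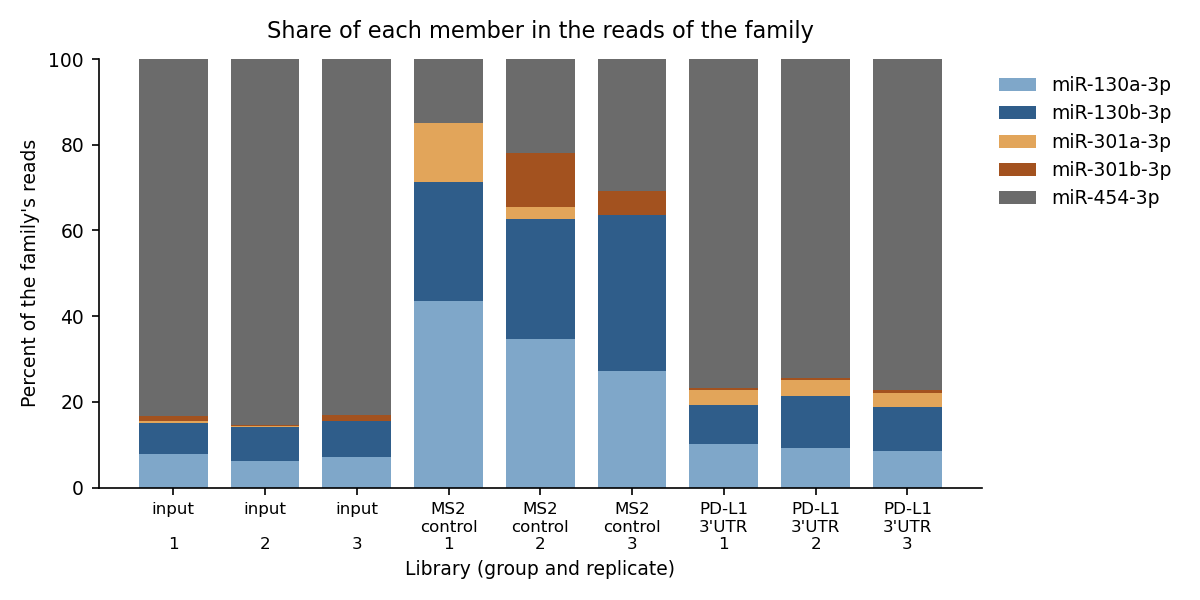
Percent of the summed reads of the 5 members that each member took, as stacked bars, 1 per library. miR-454-3p takes between 74.4% and 85.4% in the input and 3'UTR libraries and between 14.8% and 30.7% in the MS2 control libraries, where miR-130a-3p and miR-130b-3p take most of the rest.

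The arms opposite to the members come from the same hairpins but carry other seeds. With TMM scaling none of the 3 tested 5p arms was higher on the 3'UTR, while with library totals miR-130b-5p was called higher than the input at 0.63 on the log2 scale, close to the shifted median of all miRNAs. miR-130b-5p, which was far more abundant than miR-130b-3p in the lysate, had 430, 388 and 423 CPM in the input, 471, 477 and 414 CPM in the MS2 control and 426, 404 and 460 CPM on the 3'UTR. All 3 groups overlapped. Its log2 fold changes were -0.08 ± 0.14 relative to the MS2 control (edgeR adjusted p of 0.646) and 0.06 ± 0.14 over the input (edgeR adjusted p of 0.73).

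miR-301a-5p had 37.4, 46.9 and 55.6 CPM in the input, 35.6, 62.6 and 57.5 CPM in the MS2 control and 56.6, 33.5 and 46.4 CPM on the 3'UTR, again with overlap of all groups. Its log2 fold changes were -0.18 ± 0.30 relative to the MS2 control (edgeR adjusted p of 0.626) and -0.02 ± 0.30 over the input (edgeR adjusted p of 0.953), a value that turned positive with library totals and with DESeq2's size factors. In the MS2 control against the input, library totals called miR-130b-5p and miR-301a-5p higher, both by 0.77, where the median of all miRNAs was 0.65.

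miR-454-5p moved against its partner. It had 32.1, 24.3 and 29.5 CPM in the input, 52.4, 48.0 and 39.3 CPM in the MS2 control and 16.99, 17.4 and 20.3 CPM on the 3'UTR. No groups overlapped, with the MS2 control highest and the 3'UTR lowest. It fell by 1.35 on the log2 scale relative to the MS2 control (SE 0.25, edgeR adjusted p of 0.000847) and by 0.65 over the input (SE 0.25, edgeR adjusted p of 0.0404). On the loops alone it rose over the input by 0.70 ± 0.23 (edgeR adjusted p of 0.0205).

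The differences of miR-454-5p from the input were less firm than that from the MS2 control. Of 10 alternative fits to all replicates, 6 did not call its fall over the input. Of the same number, 2 did not call its rise in the MS2 control over the input. Its fall relative to the MS2 control was lost only where a change of at least 2-fold was required (edgeR adjusted p of 0.0793). With library totals the log2 fold change of miR-454-5p over the input was -0.07 (edgeR adjusted p of 0.809), and without 3'UTR replicate 1 it was -0.64 (edgeR adjusted p of 0.0987). Its fall over the input also missed the threshold without 3'UTR replicate 2 (edgeR adjusted p of 0.0596), input replicate 1 (0.0525), input replicate 3 (0.0518) or MS2 control replicate 2 (0.0563). Its rise in the MS2 control over the input missed it without input replicate 2 (edgeR adjusted p of 0.101) or 3 (0.136), any of the MS2 control replicates (0.113, 0.0516 and 0.0675) or 3'UTR replicate 2 (0.0525).

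Without 3'UTR replicate 1 the log2 fold changes relative to the MS2 control were -0.04 for miR-130b-5p, -0.33 for miR-301a-5p and -1.26 for miR-454-5p, of which the last passed the test (edgeR adjusted p of 0.0052). Over the input those of miR-130b-5p and miR-301a-5p were then 0.011 and -0.26, and neither passed.

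miR-130a-5p and miR-301b-5p were too rare to be tested. miR-130a-5p had 38 counts over the input libraries, 3 over the MS2 control libraries and 8 over the 3'UTR libraries. miR-301b-5p had 16, 23 and 12 counts.

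The share of a hairpin's reads that came from the 3p arm sets both arms side by side within a library. For miR-454, 87.9% (95% Wilson interval from 85.7% to 89.8%), 89.4% (86.9% to 91.5%) and 86.6% (84.4% to 88.6%) of reads came from the 3p arm in input replicates 1, 2 and 3. The MS2 control shares were 16.5% of 97 reads (10.4% to 25.1%), 24.8% of 161 reads (18.8% to 32.1%) and 34.2% of 79 reads (24.7% to 45.2%). On the 3'UTR they were 98.7% (98.1% to 99.1%), 98.6% (97.7% to 99.2%) and 98.8% (98.2% to 99.2%). The loops alone thus returned mostly the 5p arm of miR-454, and the 3'UTR almost purely the 3p arm. PCR copies are not independent molecules, so these intervals and the limits set by 0 counts describe counting error alone.

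For miR-130b the 3p share was between 4.28% and 4.64% in the input, between 3.95% and 5.53% in the MS2 control and between 26.3% and 33.7% on the 3'UTR. For miR-301a it lay between 0.803% and 4.05% in the input and between 52.1% and 64.8% on the 3'UTR. For miR-301a in the MS2 control the libraries had 21.4%, 3.07% and 0 of 76 reads, which allows a share of up to 3.95%. Both hairpins thus gave mainly 5p reads in the lysate, and on the 3'UTR the share of the 3p arm was above that of all input and MS2 control libraries.

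On the log2 scale, the 3p to 5p ratio of miR-454 was higher on the 3'UTR than in the MS2 control by 7.82 and than in the input by 3.34. That of miR-130b was higher by 3.22 and 3.24, and that of miR-301a by 5.19 and 6.17. In these 6 comparisons the libraries did not overlap, and the exact permutation test gave p = 0.1, the smallest value that 3 against 3 libraries allow. How often the arm ratios of other hairpins do so was not tested, so this count is no trait of the family. For miR-130a the ratio was higher by 3.41 than in the input without overlap, but relative to the MS2 control it differed by 0.67 with overlapping libraries (exact permutation p = 0.6). It rests on at most 27 reads of the 5p arm in a library. For miR-301b the groups overlapped in all 3 comparisons.

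**Figure D4:**
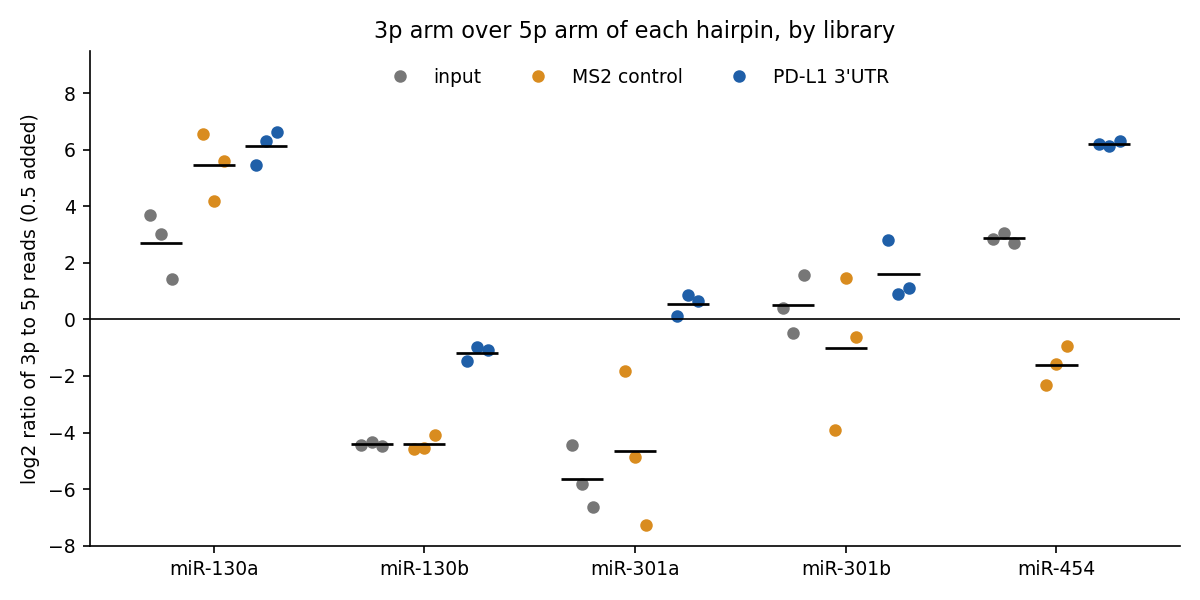
Log2 ratio of 3p to 5p reads of each hairpin, with 0.5 added to each count, 1 point per library and a bar for the mean of 3 libraries. For miR-130b, miR-301a and miR-454 the 3'UTR points lie above all others, and for miR-454 the MS2 control points lie below 0 while input and 3'UTR points lie above it.

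Seed matches were sought in the annotated 3'UTR of CD274 as a description. The 3'UTR of transcript CD274-202 spans chr9:5467863-5470554 on the forward strand (GRCh37, GENCODE), within exon 7, and is 2692 bases long. Which stretch of it the bait held was not analysed here. Motifs were searched on the transcript strand only, as the reverse complement of the seed. The 6-base match to seed bases 2 to 7, TGCACT, occurred 1 time, at bases 1935 to 1940 of the 3'UTR (chr9:5469797-5469802). The window around it (chr9:5469785-5469814, forward strand) is shown because it holds the only match found, with the match in capitals.
CD274 3'UTR: ggctctccagggTGCACTgagtcaatctag

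There was no match to seed bases 2 to 8 (TTGCACT), to bases 2 to 7 followed by A (TGCACTA), to both together (TTGCACTA) or to bases 3 to 8 (TTGCAC). Among 1241 other annotated 3'UTRs of 2423 to 2961 bases, 61.3% held TGCACT, 23.1% TTGCACT, 11.1% TGCACTA, 3.71% TTGCACTA and 48.1% TTGCAC. These motifs contain each other, so their counts are not independent. The match in CD274 is thus of a kind that most 3'UTRs of this length hold. It says nothing of whether a member binds there.

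The same stretch also matched the seed of the miR-148 family. This seed is that of the members moved by 1 base, and its full 8-base match, TGCACTGA, covered bases 1935 to 1942 of the 3'UTR and was held by 5.16% of the other 3'UTRs. The miR-17 seed, moved further, had its 8-base match GCACTTTA at bases 2496 to 2503, a motif held by 7.01% of them. For the miR-19 seed the match to bases 2 to 7 is TTGCAC, which had no occurrence here. Their sequences show that miR-148 and miR-17 seed miRNAs hold the letters AGUGC of the members at later positions, and that the miR-19 seed starts 1 base further along the members' seed. Capitals again mark bases 2 to 8.
hsa-miR-148b-3p: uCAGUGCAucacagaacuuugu
hsa-miR-20a-5p: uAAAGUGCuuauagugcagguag
hsa-miR-19b-3p: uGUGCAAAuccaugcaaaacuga

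AGUGC lay within bases 1 to 8 of 12 tested miRNAs outside the family, of 371 tested names with a sequence. The 5 most abundant were miR-20a-5p, miR-17-5p, miR-106b-5p, miR-93-5p and miR-148b-3p. All 6 miR-17 seed and all 3 miR-148 seed miRNAs are among the 12 and are counted again by family below. Relative to the MS2 control 10 of the 12 were higher and 1 lower, with a median of 4.85 on the log2 scale, and 8 were higher without 3'UTR replicate 1. Over the input 10 were higher and 2 lower, with a median of 2.96, or 2.80 without that library and with the same counts. In the MS2 control against the input 2 were higher and 8 lower, with a median of -1.95. Of all 408 miRNAs, 31.4%, 34.1% and 32.8% were higher and 28.7%, 32.4% and 37% lower in the 3 comparisons in turn. In that last comparison miR-454-3p was on the side of most of these miRNAs, and the other 4 members had positive log2 fold changes that did not pass the test.

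By family, all 6 miR-17 seed miRNAs were higher over both references, with a median log2 fold change of 6.43 relative to the MS2 control and 3.81 over the input. Of all 408 miRNAs, 18.9% were higher over both. All 6 were again higher without 3'UTR replicate 1, with medians of 6.58 and 3.89. In that fit 118 of all 469 miRNAs tested were higher relative to the MS2 control and 129 over the input. Of the 3 miR-148 seed miRNAs, 3 were higher relative to the MS2 control, and 2 were higher and 1 lower over the input. Here miR-148a-3p rested on 3'UTR replicate 1, with 20762 CPM there against 476 and 181 CPM in replicates 2 and 3. Without that library its log2 fold change relative to the MS2 control was 0.04 (edgeR adjusted p of 0.946), and 2 of the 3 were higher. Over the input its value was 7.14 with that library and 2.65 without it, and both passed the test. Both miR-19 seed miRNAs were higher relative to the MS2 control and 0 passed the test over the input, with and without that library. The median of the members, 3.17 and 3.24, lay between those of the miR-17 and miR-19 families in both comparisons. The differences between families were not tested.

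The members' seed also occurs in miR-4295 and miR-3666, which are counted in the libraries but are no members. miR-4295 had 0 counts in all 9 libraries and miR-3666 had 1 count, in 3'UTR replicate 3. Neither was tested.

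The miRNAs whose pattern over the 9 libraries was most like that of a member were found by the root mean square difference of log2 CPM, centred per miRNA, with 2 counts added. For miR-454-3p they were miR-20a-5p at 0.32, miR-93-5p at 0.70 and miR-20b-5p at 0.71. The median distance to all tested miRNAs outside the family was 2.77. All 3 of these nearest miRNAs carry the miR-17 seed. miR-20a-5p had a log2 fold change of 6.15 relative to the MS2 control, 2.49 over the input and -3.66 for the MS2 control against the input, beside 6.49, 2.74 and -3.76 for miR-454-3p. The nearest member to miR-454-3p was miR-130b-3p at 1.72.

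For miR-130a-3p the nearest miRNAs outside the family were miR-146b-5p at 0.31, miR-31-5p at 0.42 and miR-18b-5p at 0.42, and miR-130b-3p lay at 0.34. For miR-130b-3p they were miR-18b-5p at 0.35, miR-18a-5p at 0.39 and miR-31-5p at 0.40. For miR-301a-3p they were miR-140-5p at 0.92, miR-876-3p at 1.00 and miR-181b-3p at 1.11. For miR-301b-3p they were miR-1910-5p at 0.50, miR-195-5p at 0.79 and miR-450b-5p at 0.84. A small distance did not always go with like fold changes. Relative to the MS2 control, over the input and between these references, miR-18b-5p had log2 fold changes of 7.29, 4.78 and -2.51. Those of miR-130b-3p were 3.17, 3.32 and 0.14, and those of miR-31-5p 3.21, 2.73 and -0.48. For miR-876-3p they were 8.72, 6.66 and -2.06, beside 4.07, 6.10 and 2.03 for miR-301a-3p. The added counts bring the patterns of rare miRNAs closer together, which bears on miR-301a-3p, miR-301b-3p, miR-18b-5p and miR-876-3p. These distances describe libraries that share their depth and composition within a group.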

How the data were processed

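The authors deposited 1 table of raw counts, with a row for each locus of a mature miRNA, made from single-end reads. The submitters' processing notes name cutadapt 1.18, Bowtie2 2.2.6, featureCounts 1.6.3 and the build hg38. How reads with several matches were treated is not given in the sources used here. Counts of the 2883 loci were summed by miRNA name, which gave 2652 names. The sample titles gave the group and the replicate number.

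In edgeR 4.0.16 (R 4.3.3), filterByExpr with a minimum count of 10 left 408 miRNAs, which took at least 99.7% of the counts in every library. After TMM scaling, the quasi-likelihood test (glmQLFit and glmQLFTest, two-sided) was run on 1 model of all 9 libraries with a mean for each group. Benjamini-Hochberg adjustment covered all 408, and calls were made below 0.05. The common BCV (biological coefficient of variation) was 31.1%. The SE is the log2 fold change divided by the square root of F. Depth limits rare members, since 3 counts were worth between 0.676 and 4.02 CPM.

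Members and lists were chosen with earlier results of these data known. Named miRNAs were the 5 members, the 5p arms of their hairpins, other miRNAs with the same seed, the miR-17, miR-148 and miR-19 seed miRNAs, up to 5 miRNAs with AGUGC in bases 1 to 8 by mean CPM, and the 3 nearest patterns of each member. Markers of other cells were given as ranges, with the libraries that stood apart. Ratios within a library were compared by exact permutation, with 0.5 added to each count. Mature sequences come from RefSeq (GRCh38.p14), where 371 of the 408 names were found, and 3'UTRs and hairpins from GENCODE on GRCh37. Coordinates were not converted between builds. As alternatives, libraries were scaled by their totals or by DESeq2's size factors, tests were replaced by the Wald test of DESeq2 1.42.0 or the exact test of edgeR, filters were changed, loci were kept apart, fits were limited to the groups compared, a change of at least 2-fold was required, replicate numbers entered as a block, and each library was left out in turn.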

Additional observations from a re-analysis of the deposited data

How the results depend on the processing

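The members called over the MS2 control, 4 higher and 0 lower, were the same in number under every alternative run, and over the input 4 or 5 were higher and 0 lower. In the MS2 control against the input 1 member was lower throughout, and 0 were higher except for 3 with library totals, 1 with DESeq2, 1 without a filter and 0 to 1 when each library was left out. With edgeR's exact test and with only the groups compared, 3 members were tested there. miR-301a-3p and miR-301b-3p did not pass the filter in these fits and could not be called. Of all 465 miRNAs tested in them, 149 and 146 were higher. With library totals the summed level was 10.9-fold the input with the PD-L1 3'UTR and 0.430-fold in the MS2 control.

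Small log2 fold changes that missed the threshold changed sign. For miR-130b-5p with the PD-L1 3'UTR against the input they were -0.048 with edgeR's exact test, -0.20 without a filter, -0.048 with only the groups compared, -0.014 with separate loci and -0.13 to 0.056 leaving out each library. For miR-301a-5p in that comparison they were 0.053 with DESeq2's size factors, 0.55 with library totals, 0.059 with DESeq2, 0.0079 with the replicate block and -0.30 to 0.031 leaving out each library. In the MS2 control against the input, they were without a filter -0.12 for miR-130b-3p, -0.13 for miR-130b-5p and -0.087 for miR-301a-5p. Leaving out each library gave -0.11 to 0.20 for miR-130b-3p, -0.35 to 1.43 for miR-301b-3p, -0.0097 to 0.11 for miR-130b-5p and -0.085 to 0.27 for miR-301a-5p. The causes were not tested.

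Whether replicate numbers pair the samples was not settled. The correlations of same-numbered deviations ran from -0.179 to 0.129, and those of differently numbered libraries of other groups from -0.119 to 0.192. Between MS2 control and 3'UTR libraries the same-numbered values ran from 0.0666 to 0.129, above the others, which ran from -0.117 to 0.0259. With the replicate block 4, 4 and 0 members were higher and 0, 0 and 1 lower in the 3 comparisons, as without it. The fall of miR-454-5p over the input then had an edgeR adjusted p of 0.0647. With a mean of at least 10 CPM miR-301b-3p was not tested. The values of miR-301a-3p and miR-301b-3p rest on few counts.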
